A study of Mus musculus with 2 samples.

Results

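Celf2 is the gene described here, through the positions at which its RNA was crosslinked in the cytoplasm of mouse neurons. Its reads were those lying wholly between 6460000 and 7320000 on the minus strand of chromosome 2 (mm9, as all genome positions here), an interval given as the place of Celf2 and not checked here against an mm9 annotation. Celf2 and a stretch inside the interval were selected on the numbers of anti-Rbfox1 reads and clusters in these libraries, so their counts are a description and carry no test. Of the 64820 deposited reads of the anti-Rbfox1 library, 212 belonged to Celf2, and of the 10134 clusters built from them, 36. Of the 569 reads and 233 clusters of the anti-Flag library, 2 reads in 1 cluster did.

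The study sequenced RNA from forebrain neurons of the mouse, grown in culture to day 14 in vitro and treated with ultraviolet light before a cytoplasmic fraction was taken. It asked which RNAs Rbfox1 binds outside the nucleus. Precipitation was with anti-Rbfox1 antibodies in 1 library and with anti-Flag antibodies, the control, in the other. No genotype or transgene is named for either, and the sources used here do not say how many cultures went into each. With 1 library per antibody, intervals are exact 95% intervals and cover counting error only.

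In iCLIP, light joins a protein to RNA in contact with it, and the start of a read marks the base next to the joined one. Rbfox1, made in neurons, heart and muscle, recognises RNA by the sequence GCAUG and is best known as a splicing regulator, with forms that reside in the nucleus or in the cytoplasm. Celf2 encodes CUGBP Elav-like family member 2, itself an RNA-binding protein of brain, heart and muscle. Proteins of this family bind sequences rich in G and U, control alternative splicing in the nucleus, and act on mRNA stability and translation in the cytoplasm.

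The 3′ untranslated regions of Celf2 transcripts annotated in GENCODE M21 were searched for GCATG. This is the DNA spelling of the motif that Rbfox1 recognises. Other parts of the transcripts were not searched. The annotation is of GRCm38, a later build than the files, so the matches could not be set against the reads. The longest of 14 annotated 3′ untranslated regions has 7384 nt and holds 6 matches on the sense strand, the one present in RNA. They are shown 5′ to 3′ with the motif in capitals and 10 nt on either side.

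site 1: cgtttgcctaGCATGtccctgtggc
site 2: tttgaaatttGCATGtgacctcatc
site 3: attctcagacGCATGtggacacctg
site 4: gcttggttttGCATGtttcattgtt
site 5: ctctcactggGCATGaggttccgag
site 6: tcagcacaggGCATGatgttcgcgc

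The sites begin at bases 1447, 1571, 3298, 4113, 6337 and 6605 of that region. Sites 2 and 4 make the longer form TGCATG, which contains GCATG. Not all annotated Celf2 regions hold them. With these flanks, sites 1 and 2 were in 9 of the 14, site 3 in 6, site 4 in 5, and sites 5 and 6 in 4. Cut into windows of 1000 nt, the longest Celf2 region had GCATG in 4 of 7 windows and TGCATG in 2 of 7. Of the 22012 such windows in the longest 3′ untranslated region of each mouse gene, 60.8% held GCATG and 29.2% held TGCATG. Celf2 had 0.813 GCATG per kb, below the median of 0.953 over the 1457 genes with a region of at least 4000 nt. By this count the Celf2 region was not rich in the motif. Whether crosslinks lay near these sites was not analysed here.

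The anti-Rbfox1 reads of Celf2 were concentrated near the downstream edge of the interval. On the minus strand the transcript runs from high to low positions, so the low edge of the interval is its 3′ side. The stretch from 6462920 to 6467026, 4107 nt or 0.478% of the interval, held 166 of the 212 reads (78.3%, 72.1 to 83.7). The other 46 reads were split between 12 downstream of the stretch and 34 upstream of it. This gave 40.4 reads per kb in the stretch and 0.0537 reads per kb in the rest, a ratio of 752 (539.6 to 1067). Counted as clusters, 19 lay in the stretch and 17 in the rest, and the ratio was 232.9 (114.6 to 477).

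**Figure D1:**
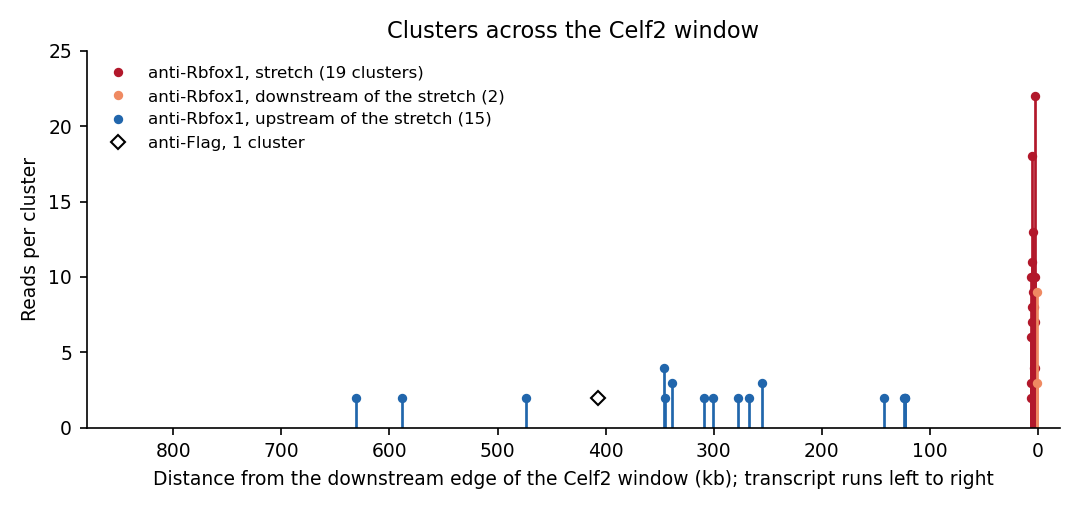
Reads per cluster (vertical axis) against distance from the downstream edge of the Celf2 interval in kb (horizontal axis), with 1 line and point per anti-Rbfox1 cluster and an open diamond for the anti-Flag cluster. The 21 tall or crowded clusters sit at the 3′ side, with up to 22 reads, and the 15 upstream clusters hold 2 to 4 reads each.

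Stretch and upstream clusters came from different parts of the deposited file, in which the order of chromosomes starts again several times and so divides the lines into 11 blocks. All 166 reads of the stretch and the 12 downstream of it lay in the fourth block, and all 34 upstream reads lay in the first. The meaning of the blocks is not stated in the labels or files, and block and place in the gene cannot be told apart. The fourth block held 48064 reads and the first 10007. Celf2 made up 0.370% of the fourth block (0.318 to 0.429) and 0.340% of the first (0.235 to 0.475), and these intervals overlapped. With reads of the fourth block alone, and the rest of the interval kept at its whole length, the ratio of reads per kb was 2883 (1607 to 5692). The reads of that block spanned 6176 nt, and against the 2069 nt of this span outside the stretch, the ratio was 6.97 (3.88 to 13.8). The size of the ratio thus depended on the length of gene set against the stretch.

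The blocks also differed in how many reads shared a leftmost base, and how each had been collapsed is not stated. In the first block no reads shared both leftmost base and strand, whereas in the fourth 16313 reads repeated an earlier one in this respect. With 1 read per leftmost base kept in every block, the stretch kept 129 reads and the rest 42, a share of 75.4%. By distinct crosslink positions the values were 130 and 44, a share of 74.7%. Both lay within the interval of the share by reads.

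The stretch consisted of 19 clusters, that is, sets of reads whose crosslink positions lay within 20 nt of the next. They held 2 to 22 reads each with a median of 8. Across the whole anti-Rbfox1 library 12.3% of clusters held 10 reads or more, and within the fourth block 22% did. In the stretch 7 of 19 clusters did (36.8%, 16.3 to 61.6). Of the 21 Celf2 clusters in the fourth block, 1 held the minimum of 2 reads (4.76%, 0.121 to 23.8), against 25.6% of the clusters in that block. Since the 19 clusters of the stretch were selected on their reads and clusters, nothing is read from either comparison. The deepest cluster of the block held 416 reads.

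Along the transcript, gaps of at least 200 nt without reads divided the stretch into 7 groups of clusters, a division made after the positions were seen. The first group, at 6466980 to 6467026, was a single cluster of 2 reads. The next lay 282 nt further on, at 6466488 to 6466697, with 19 reads in 3 clusters. Its main cluster, from 6466643, held 10 reads at 8 positions, and its neighbour from 6466499 held 6 reads at 3 positions. A lone cluster of 8 reads followed at 6465932 to 6465993. Each of these 3 groups on the 5′ side held fewer reads than any of the 4 after them.

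The group with most reads was the fourth, at 6465155 to 6465721. It spanned 567 nt and held 50 reads in 5 clusters, 30.1% of the stretch. Its clusters, in transcript order, held 18, 11, 6, 7 and 8 reads, so that reads were spread over the group and not gathered in 1 place. The cluster of 18 reads, at 6465645 to 6465721, had crosslinks at 14 positions over 44 nt. The next, at 6465546 to 6465587, contained the position with most reads in all of Celf2, 6465578, with 4 reads of different lengths.

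After 623 nt without reads, 22 reads in 2 clusters lay at 6464387 to 6464531. The upstream cluster of this pair, from 6464474, held 13 reads and the other 9. The widest gap of the stretch, 629 nt, separated them from the sixth group. That group, at 6463525 to 6463757, held 22 reads in clusters of 4, 10 and 8. Both groups thus had the same number of reads, over spans of 145 and 233 nt.

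The 3′ end of the stretch carried its deepest cluster. The last group, at 6462920 to 6463212, held 43 reads in 4 clusters, 25.9% of the stretch. Its final cluster, at 6462920 to 6462989, held 22 reads at 16 positions over 41 nt, and up to 17 reads overlapped at 1 base there. The cluster before it, from 6463044, held 10 reads over 64 nt, the widest spread of crosslinks in the stretch. Reads covered 1001 of the 4107 nt (24.4%), and the upstream and downstream 50% of the length held 79 and 87 reads. The stretch was thus filled from end to end at intervals, with no single dominant site.

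**Figure D2:**
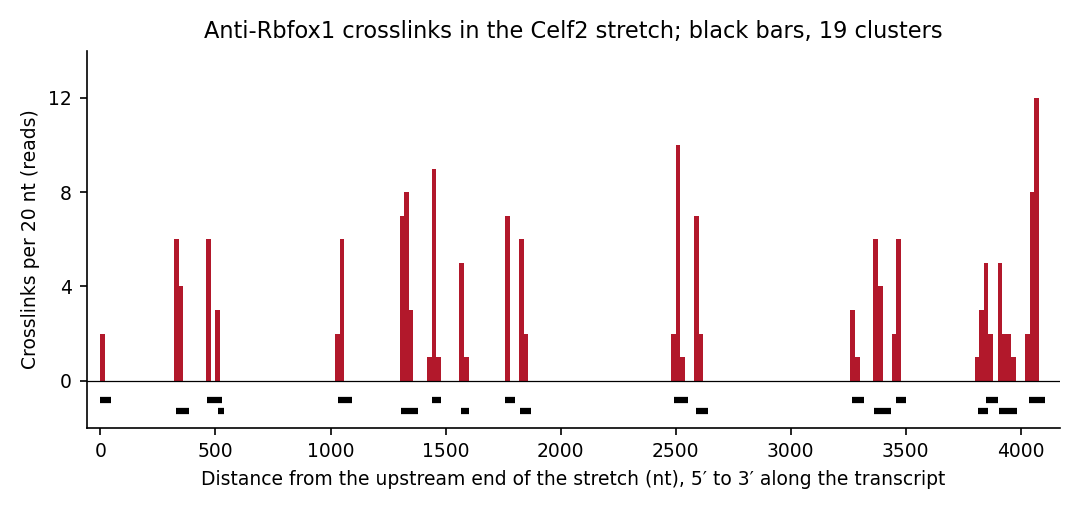
Anti-Rbfox1 crosslinks per 20 nt (vertical axis, reads) along the Celf2 stretch from its 5′ to its 3′ end (horizontal axis, nt); black bars below 0 mark the 19 clusters. The highest bin, 12 reads, lies in the last cluster, and 166 of 206 bins are empty.

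At the level of single bases the signal was thin. Of the 130 crosslink positions in the stretch, 102 had 1 read, 21 had 2, 6 had 3 and 1 had 4. The largest cluster held 13.3% of the reads of the stretch and the largest 3 held 31.9%. Reads that shared a 3′ end with another read and had crosslinks 1 nt apart were few, and counting them as 1 removed 9 of 166 reads (5.42%), against 10.95% in the library. The library share covers all blocks, which differed in shared leftmost bases. The stretch lies in the fourth block alone, so the shares are not of like reads.

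Downstream of the stretch, 1820 nt away, were the 12 further reads of the fourth block. A cluster at 6461048 to 6461099 held 9 reads, each at a position of its own. Of these, 5 reads of 26 to 30 nt shared the leftmost base 6461061 and had crosslinks at the 5 adjacent bases from 6461087 to 6461091, a ladder that counts as 1 read when near-copies are merged. The last cluster, at 6460851 to 6460882, held 3 reads. Its outer base lay 851 nt inside the low edge of the interval, and 0 reads of either library lay in the next 100 kb on the same strand. Joined within 2000 nt in place of 1000, these clusters became part of the stretch, which then had 21 clusters and 178 reads. The 14 annotated 3′ untranslated regions of Celf2 had between 4 and 7384 nt, 4 of them at least 6018 nt. The build differs, and the reads were not placed on any of them.

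Upstream of the stretch, 115759 nt without reads came first, and 15 clusters then lay scattered over 507836 nt. Of these, 12 held 2 reads (80%, 51.9 to 95.7), against 77.1% of all clusters in the first block. They held 2.267 reads per cluster, against a mean of 2.775 in that block. With 15 clusters the interval is wide, and a difference from the block could not be told. The deepest, at 6805599 to 6805654, held 4 reads at 4 positions. Clusters of 3 reads, with 2 of them at 1 position in each, lay at 6798177 to 6798218 and 6715146 to 6715184. The gap between neighbours had a median of 15386 nt and a range of 447 to 127807 nt. The remaining clusters were pairs of reads, the first of them in transcript order at 7090598 to 7090621.

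Some upstream clusters lay close together. At 6582786, 6583312 and 6584196 began 3 clusters of 2 reads each, and the cluster of 4 reads had a neighbour of 2 reads at 6805107 to 6805151. The other 11 gaps exceeded 1000 nt. In GENCODE M21 (GRCm38) the Celf2 gene spans 969870 nt, 109869 nt more than the interval used here, so the interval is too short to hold that whole span, and on which side it falls short was not determined. No read of either library was found on the same strand in the next 200 kb on the upstream side. The annotation also places 3 noncoding genes on the strand of Celf2 within its span, Gm10855, Gm10115 and Gm26315, and upstream reads could not be assigned between them and Celf2.

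No read of either library lay on the plus strand of the interval. How often the opposite strand is empty elsewhere was not counted, so nothing particular to Celf2 is read from this. Read lengths were alike along the gene, with a median of 28 nt and quartiles of 23 and 34 nt in the stretch and a median of 27 nt and quartiles of 23 and 31.8 nt in the rest. Reads under 20 nt made up 12 of 166 in the stretch (7.23%) and 4 of 46 in the rest (8.70%), against 9.86% of the library. By read names, the first 16 of 96 tiles gave 85.5% of stretch reads (79.3 to 90.5) and 67.4% of the rest (52.0 to 80.5). This share was 82.5% in the fourth block, 75.4% in the first and 81.3% in the whole library. The rest held reads of both the first and the fourth block. The part of these differences in the counts was not tested.

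By share of library, the control could not separate Celf2 from background. Shares set aside the different sizes of the libraries, and how many reads each had before collapsing is not known. Celf2 made up 0.327% of the anti-Rbfox1 library (212 of 64820, 0.285 to 0.374) and 0.351% of the anti-Flag library (2 of 569, 0.0426 to 1.26). The interval for the control included that of the anti-Rbfox1 library. At the anti-Rbfox1 share, 1.86 anti-Flag reads would fall in Celf2 and 1.46 in its stretch. The control held 0 reads in the stretch, which allows up to 0.527% of that library by a limit of 3 counts, and the stretch held 0.256% of the anti-Rbfox1 library. A control share as large as that of the stretch was therefore not detectable at this depth.

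The reads of the 2 libraries lay apart within the gene. The anti-Flag reads, both 25 nt long, lay at 6867044 to 6867069, 400017 nt upstream of the stretch and 61389 nt from the nearest anti-Rbfox1 read. They belonged to the first block of the control file, where Celf2 made up 2 of 305 reads (0.656%, 0.0795 to 2.35), against 34 of 10007 in the first block of the anti-Rbfox1 file. The control block matched to the fourth one, by reads that overlap between libraries, held 0 Celf2 reads among 185, which allows up to 1.62%. None of the 36 anti-Rbfox1 clusters of Celf2 shared a base with a control read, which allows up to 8.33%, and 0.572% of all anti-Rbfox1 clusters did. At that background share, 0 of 36 says nothing particular about Celf2.

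Joining clusters with less than 1000 nt between their outer bases gave 7297 stretches in the anti-Rbfox1 library. By its span, the Celf2 stretch was the longest of them, and 1 stretch had more clusters. In reads it was less prominent, with 50 stretches above it, and 31 were above it in crosslink positions. The length depends on the joining distance, since joining within 500 nt left 10 clusters and 79 reads over 1872 nt, at 6465155 to 6467026.

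**Figure D3:**
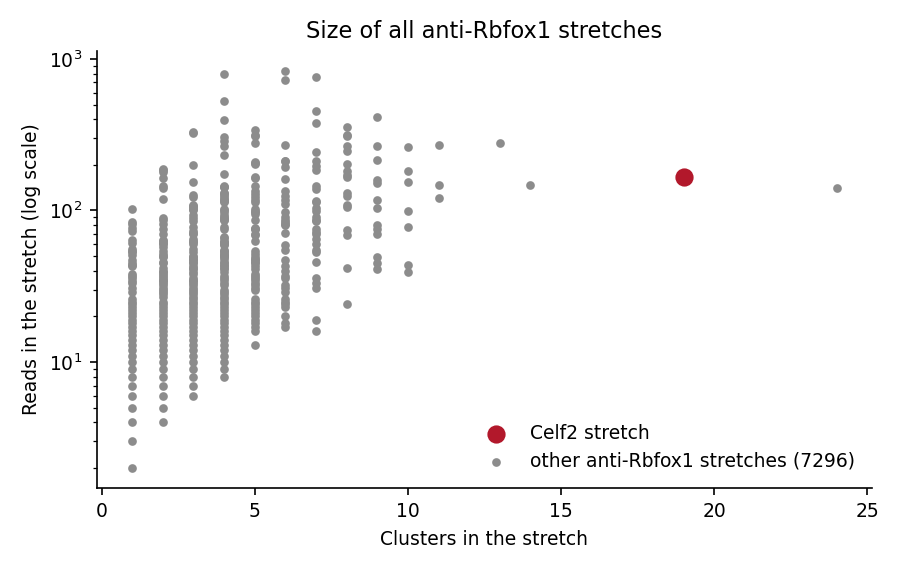
Reads (vertical axis, log scale) against clusters (horizontal axis) for each of the 7297 anti-Rbfox1 stretches, Celf2 in red and the others in grey. The Celf2 stretch, with 19 clusters and 166 reads, lies far to the right but well below the largest read count of 837.

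Among the 114 stretches of at least 100 reads, that of Celf2 had a small share of its reads in 1 cluster. Its largest cluster held 13.3% of its reads, where the median over these stretches was 45.5% and the quartiles were 35.6% and 60.1%, and only 1 stretch had a lower share. Reads per cluster were 8.74, against a median of 32.6, and reads per kb 40.4, against 168.1. In both measures 1 of the 114 was lower. The stretch had been selected for its many clusters, and a stretch of many clusters tends to low values in all 3 measures. Within the stretch the 7 clusters of 10 reads or more held 94 of its 166 reads (56.6%).

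The stretches most like it were found by the Euclidean distance in log2 span, log2 clusters and log2 reads over the anti-Rbfox1 library. The nearest, at a distance of 0.419, was on the minus strand of chromosome 15 (79654393 to 79658390), with 140 reads in 24 clusters and 12.1% of its reads in the largest. It is the only stretch with more clusters than Celf2, and its clusters lay in the first block. The next, at 0.541, was on the minus strand of chromosome 11 (97370782 to 97374212), with 147 reads in 14 clusters and 17.7% in the largest. In both, as in Celf2, the largest cluster held under 20% of the reads.

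The others were less like it, at distances of 1.08 to 1.15. The stretch on the plus strand of chromosome 17 (87054439 to 87057242) had 154 reads in 10 clusters, with 37.7% in the largest. A minus-strand stretch of chromosome 13 (110844401 to 110847031) had 182 reads in 10 clusters, with 31.9% in the largest, and 2 control reads overlapped it. That on the minus strand of chromosome 3 (146392583 to 146395616) had 272 reads in 11 clusters, with 47.8% in the largest. Its reads lay in the fourth and ninth blocks, and those on chromosomes 17 and 13 in the fourth alone. With similar numbers of reads in all but the last, these stretches had 10 or 11 clusters, fewer than Celf2. Their largest clusters held 31.9% to 47.8% of the reads, above the 13.3% of Celf2. The median over the 114 stretches of at least 100 reads was 45.5%. No gene is named for these positions, because an mm9 annotation was not used here.

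**Figure D4:**
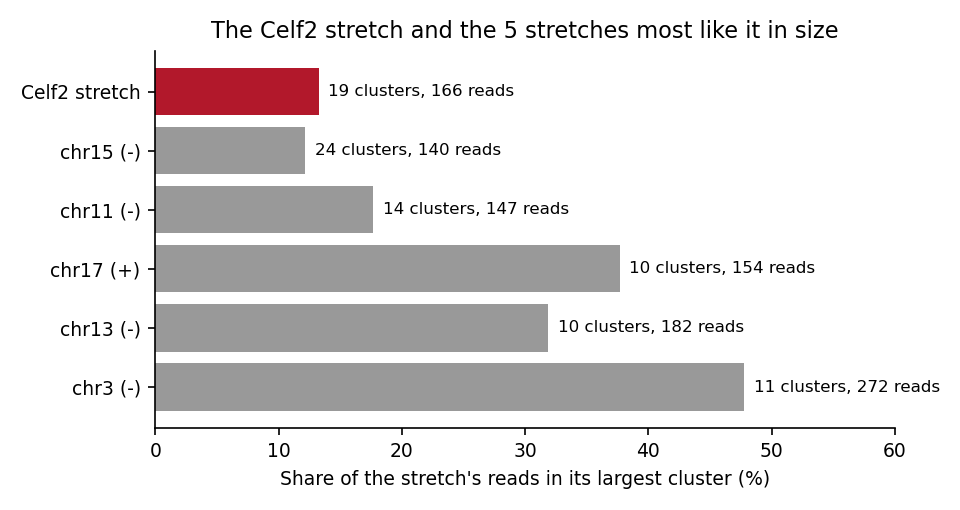
Share of a stretch's reads in its largest cluster (horizontal axis, %) for the Celf2 stretch (red) and the 5 anti-Rbfox1 stretches most like it in span, clusters and reads (grey), named by chromosome and strand. Celf2, at 13.3%, lies beside the chromosome 15 stretch at 12.1%, and the stretches on chromosomes 17, 13 and 3 exceed 30%.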

How the data were processed

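Each line of the deposited files is an aligned read with its outer bases, its strand and 1 more position. Bowtie and mm9 were named in the submitters' processing notes, without versions or filters. The added position was next to the 5′ end of the read in all 64820 anti-Rbfox1 and 569 anti-Flag reads, and it was taken as the crosslink. The libraries held 0 identical reads and 0 clusters with a single position, so the reads had been collapsed and filtered before deposit and do not count all molecules. Clusters (crosslinks within 20 nt) and stretches (clusters within 1000 nt) were built over whole files. Intervals of shares are Clopper-Pearson, those of ratios exact conditional, and a count of 0 was given a limit of 3. The text names all clusters or groups of the stretch, the deepest clusters outside it, the 5 stretches nearest in size and any with more clusters. Gene, lists and rules were chosen with earlier results of these data known. The building of clusters and stretches was tested on simulated data and the interval of ratios on made-up counts, and the other steps were not tested so. Software was Python 3.11.15, numpy 2.4.6, pandas 2.3.3, scipy 1.17.1 and matplotlib 3.10.9. GENCODE M21 served for transcript sequences, lengths and names.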

Additional observations from a re-analysis of the deposited data

How the results depend on the processing

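Of 32 alternative settings for 6 results, 24 left the value within its interval, or a count within 1.5 times, and 8 moved it. A direction was turned by 0 of them. Shares and counts have no direction to turn, and the stretch was selected on these same reads, so nothing is read from this. The share of Celf2 reads in the stretch, 78.3%, was 52.8% by clusters and 94.4% in clusters of at least 5 reads. It was 93.3% within the fourth block, in which none of the upstream clusters lay. The ratio of reads per kb, 752, was 232.9 by clusters and 2883 with reads of the fourth block alone, which leaves out the upstream reads. It was 6.97 when, besides, the rest was limited to the span of that block's reads, so the low value comes from the shorter rest. The 36 clusters of Celf2 became 16 with at least 5 reads, and the 19 of the stretch became 10 when joined within 500 nt. Settings by block and by leftmost base were chosen after the data were seen. No paired analysis was possible because the design has no replicates. With 569 control reads, 0 reads still allow 0.527% of that library, so depth limits every comparison with the control.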
